A study of Mus musculus with 6 samples.

Results

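Toll-like receptors are membrane proteins of the innate immune system that bind microbial lipids, proteins and nucleic acids. Tlr1, Tlr2, Tlr4, Tlr5 and Tlr6 act at the cell surface and are known from neutrophils and monocytes, whereas Tlr3, Tlr7, Tlr8 and Tlr9 bind nucleic acids inside endosomes, and Tlr7 and Tlr9 are known in mice from B cells and plasmacytoid dendritic cells. Myd88 is the adaptor that most of these receptors use to reach the IRAK kinases and NF-kB. The open chromatin at these 10 genes is described here in mouse blood leukocytes, by ATAC-seq, an assay that tags DNA where the transposase Tn5 can reach it. A peak was assigned to a gene when its summit lay in the gene body or within 3 kb of an annotated start. Of 62876 regions with a peak in at least 1 library, 27 belonged to these genes, 17 to surface receptors, 8 to endosomal receptors and 2 to Myd88. All 10 genes had a peak in at least 1 library, and 14 of the 27 regions had a peak in all 6 libraries.

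The study asked how chromatin changes in HADA, or high-altitude de-acclimatization, when animals are back from low oxygen. There were 3 control libraries, from mice kept in normal oxygen, and 3 HADA libraries, from mice that had lived for 4 weeks in a hypobaric chamber simulating high altitude and were then moved back to normal oxygen. Per the study's methods the mice were male C57BL/6j, 8 weeks old when bought, and no transgene or deletion is named for either group. The day of recovery on which this blood was drawn is not given in the sources used here, and neither is whether each library came from its own mouse, so p-values measure the spread between these libraries. The cells were unsorted leukocytes after red cell lysis per the labels and methods, while the study's results text calls them mononuclear cells. The lists held 34045 to 41475 peaks on the main chromosomes in the control libraries and 44044 to 45799 in the HADA libraries, with control 3 lowest. Relative depth, read as the background pileup over the genome, ranged from 1.69 to 2.05 in the controls and from 1.99 to 2.34 in HADA.

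The cell type markers differed between the groups, and the control libraries differed among themselves. A peak's height is its summit pileup, the number of fragments that overlap its highest point, and a level over background is that pileup divided by the library's background pileup, here summed over the peaks of a list. The 10 B cell genes summed to 595, 341 and 52.5 in controls 1, 2 and 3 and to 1667, 1712 and 1640 in the HADA libraries, with only 5 of the 10 genes holding a peak in control 3. The 10 neutrophil genes summed to 517, 327 and 887 in the controls and to 302, 219 and 155 in the HADA libraries, although Camp and Ngp of that list had no peak in any library. The 10 monocyte genes lay between 343 and 467 in the controls and between 215 and 282 in HADA libraries. Within that list Ccr2 and Ly6c2 did not share the direction of the sum, with Ly6c2 at 51.5, 29.7 and 37.7 in the controls against 65.8, 40.7 and 45.3 in HADA, and Ccr2 at 10.2 in control 2 alone against 12.4, 21.1 and 6.60. T cell genes ranged from 480 to 705 in the controls and 879 to 976 in HADA, NK cell genes from 11.5 to 39.7 and 41.9 to 77.8, and plasmacytoid dendritic cell genes from 265 to 405 and 617 to 679. Cd3d, Cd3g, Cd6 and Cd28 of the T cell list overlapped between the groups, as did Bst2 of the plasmacytoid list. Within the NK list Prf1 overlapped between the groups, and Ncr1 had peaks in controls 1 and 2 alone. Siglech and Klk1 of the plasmacytoid list had no peak in any library, and its Tcf4 and Spib are also expressed by B cells. For each of these 6 lists the 3 control and 3 HADA libraries did not overlap (exact two-sided permutation test, p = 0.1 for each, the smallest that 3 against 3 libraries allow). Over background, 42.6% of single shared regions were higher in HADA without overlap and 17.4% were lower. The median shared region was 0.34 higher in HADA on the log2 scale. The share of other gene lists that do not overlap was not computed. In these mixed cells, fewer cells of a type and less open chromatin per cell cannot be told apart, and the part of the marker differences in the results that follow was not tested.

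Sequence is shown for 5 regions on which the comparison turns. They include the Tlr9 promoter and the control-only and the mostly-control Tlr4 introns. The others are the most negative of the shared regions annotated as intron alone and the intronic Tlr7 region nearest a start. Each is the stretch 100 bp to either side of the highest summit in GRCm39, read 5′ to 3′ on the strand of the named gene. All distances in the labels, also those given as into the gene, are counted from the nearest annotated transcript start. That start need not be the outer end of the gene. None of these windows overlaps an annotated untranslated or non-coding exon, and the central 50 bases of each occur once in the genome. Capitals mark matches, on either strand, to the searched motifs PU.1 (GAGGAAGT), EBF, C/EBP (TTGCNNAA), AP-1 (TGANTCA), RUNX (TGTGGTT), IRF, NF-kB (GGGNNTTCC), NRF2 (TGACNNNGC), ETS (CCGGAAGT) and the octamer (ATGCAAAT), the last of which was added after the Tlr9 sequence had been seen.
Tlr9, 119 bp before its start, chr9:106099578-106099778, plus strand: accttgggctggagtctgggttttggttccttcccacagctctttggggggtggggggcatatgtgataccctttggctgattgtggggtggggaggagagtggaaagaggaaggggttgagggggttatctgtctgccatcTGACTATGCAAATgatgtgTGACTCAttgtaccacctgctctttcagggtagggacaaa
Tlr4, 23986 bp into the gene, chr4:66770325-66770525, plus strand: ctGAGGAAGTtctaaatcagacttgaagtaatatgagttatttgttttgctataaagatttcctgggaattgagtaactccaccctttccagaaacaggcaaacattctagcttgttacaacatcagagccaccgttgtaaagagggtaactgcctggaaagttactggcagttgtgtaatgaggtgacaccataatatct
Tlr4, 29034 bp into the gene, chr4:66775373-66775573, plus strand: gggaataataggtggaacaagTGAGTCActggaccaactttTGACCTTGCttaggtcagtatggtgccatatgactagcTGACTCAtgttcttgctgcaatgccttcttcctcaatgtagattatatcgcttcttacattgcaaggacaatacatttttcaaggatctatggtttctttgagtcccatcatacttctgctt
Tlr6, 7702 bp downstream of a start, chr5:65195695-65195895, minus strand: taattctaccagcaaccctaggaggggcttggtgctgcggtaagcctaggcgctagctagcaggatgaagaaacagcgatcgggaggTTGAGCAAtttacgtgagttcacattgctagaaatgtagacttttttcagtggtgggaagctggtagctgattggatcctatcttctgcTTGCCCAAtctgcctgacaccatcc
Tlr7, 1627 bp into the gene, chrX:166111712-166111912, minus strand: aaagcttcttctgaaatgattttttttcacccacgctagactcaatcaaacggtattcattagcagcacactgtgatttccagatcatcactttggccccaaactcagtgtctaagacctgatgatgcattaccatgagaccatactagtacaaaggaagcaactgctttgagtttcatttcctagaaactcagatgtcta

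The Tlr9 window held an NRF2 match that overlaps an octamer match, followed by an AP-1 match. In windows of the same length at all 62876 regions, 8.27% held the NRF2 letters, 1.65% the octamer and 5.49% the AP-1 letters. The Tlr4 window at 23986 bp held a PU.1 match (4.17% of all regions) and that at 29034 bp held AP-1 matches on either side of an NRF2 match. The Tlr6 window held C/EBP matches, a motif found in 8.70% of all regions, and the Tlr7 window held none of the letters searched. These matches describe the letters of the windows only.

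Across the 14 shared regions, Tlr9 rose in HADA, and regions of Tlr2, Tlr5 and Tlr6 fell. The test was limma on log2 pileup centred on each library's median shared region, adjusted over all 23970 shared regions, so each change is relative to that median. With pileups divided by the background instead, the median shared region itself was 0.34 higher in HADA on the log2 scale. In this test 5 of the 14 shared regions were lower in HADA, all at surface receptors, against 24.5% of all shared regions lower, and 1 of 14 was higher, against 18.4%. Among the 10 shared regions within 3 kb of a start, 4 were lower and 1 was higher, against 9.89% lower and 21.4% higher for shared regions near protein-coding starts. The median log2 difference was -0.35 over the 14 regions and -0.46 over the 11 at surface receptors, beside -0.04 over all shared regions. The 11 surface regions had 10 negative differences and 1 positive, the single shared endosomal region was positive, and the 2 Myd88 regions had 1 of each. These signs depend on the scaling, since with background scaling the Tlr4 start, Tlr5 at 5328 bp and Tlr6 at 156 bp turned positive, with ranks of the deposited fold the Tlr2 and Tlr4 starts, Tlr5 at 5328 bp and Tlr6 at 19256 bp upstream did, and the median over the 14 regions became 0.026 and 0.027. After centring, 6 of the 11 surface regions were lower in every HADA library than in any control library, against 31.2% of all shared regions, and Tlr9 alone of the 14 was higher in that way, against 29.4%.

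**Figure D1:**
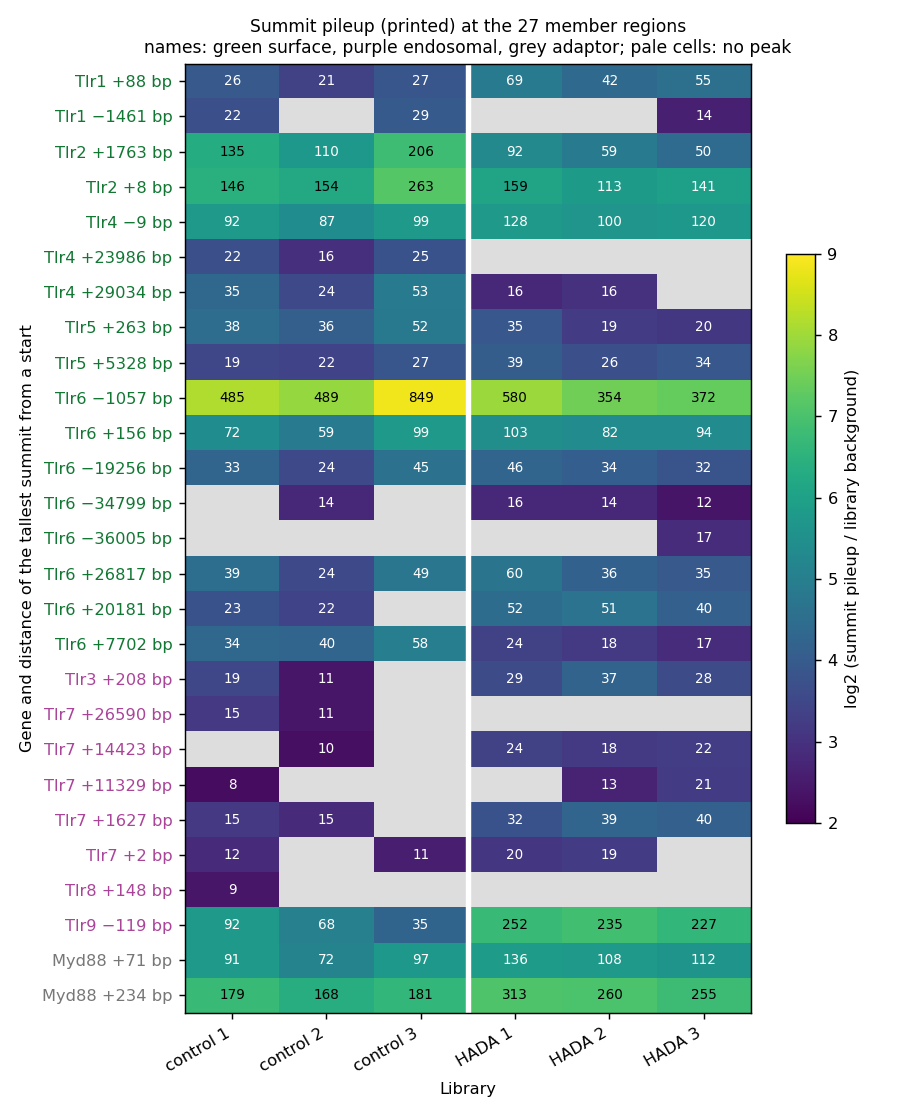
Summit pileup, printed as fragments, at the 27 regions (rows, named by gene and distance of the tallest summit from a start in bp) in the 6 libraries (columns); colour gives log2 of pileup over library background and pale cells had no peak. Tlr9 reads 92, 68 and 35 in the controls and 252, 235 and 227 in the HADA libraries, while both Tlr2 rows are darker in HADA and the Tlr4 row at 23986 bp is empty there.

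Tlr9 binds unmethylated CpG DNA in endosomes. Its only region, chr9:106099186-106100654, had its summit 119 bp upstream of the start of the gene (ENSMUSG00000045322.11, chr9:106099797-106104082, plus strand). The summit pileup was 92, 68 and 35 in controls 1, 2 and 3 and 252, 235 and 227 in the HADA libraries. The lowest HADA library was well above the highest control library, and control 3, which had the lowest B cell marker sum, was also lowest here. Over background the level was 35.6 ± 17.8 in the controls and 108.5 ± 9.12 in HADA libraries (SD, n = 3 each), a ratio of 3.05 (exact two-sided permutation test, p = 0.1). On that scale 42.6% of all shared regions were higher in HADA without overlap, and 17.4% were lower. On the centred log2 scale the region rose by 1.35 (SE 0.26, limma adjusted p = 0.0074), and by 0.98 (limma adjusted p = 0.0010) without control 3.

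The deposited fold enrichment at Tlr9 differed far less, because it divides the summit by a local background that moved with it. Every HADA fold was still above every control fold. The solved local background was 10.0, 7.41 and 3.93 in the controls and 27.2, 23.7 and 25.6 in HADA libraries, while the deposited fold was 8.45, 8.21 and 7.31 against 8.97, 9.57 and 8.59. When the fold was ranked within each library instead of the pileup, the Tlr9 difference was 0.12 in normal scores (limma adjusted p = 0.57). The same ranking ended the calls at the Tlr2 regions, at Tlr5 and at the tallest Tlr6 region, which left 1 member region lower and 2 higher, against 5.82% and 7.64% of all shared regions.

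The other endosomal receptors had low peaks that were absent from some libraries. Tlr7 binds single-stranded RNA, and its intronic region at chrX:166111445-166112184, 1627 bp from a start, had pileups of 15 and 15 in controls 1 and 2, no peak in control 3, and 32, 39 and 40 in HADA libraries. Another Tlr7 intron, with its summit 14423 bp from a start, had a peak only in control 2 among the controls (10) and read 24, 18 and 22 in HADA libraries. The HADA libraries were higher than every control peak at both places. With a missing pileup set to the lowest in that library's list, the differences were 0.97 (limma adjusted p = 0.0345) and 0.74 (limma adjusted p = 0.041), and in that fit over regions with a peak in 3 or more libraries 23.4% were higher and 23.4% lower. The filled-in values were 1 of 3 controls at the former and 2 of 3 at the latter, so part of each difference was set by the filling. At the Tlr7 start, 2 bp away, the pileup was 12 and 11 in controls 1 and 3 and 20 and 19 in HADA 1 and 2, and the difference with missing values filled in was -0.12 (limma adjusted p = 0.81). Of the remaining Tlr7 regions, one had 8 in control 1 against 13 and 21 in HADA 2 and 3 (0.13 with missing values filled in, limma adjusted p = 0.77), and one had 15 and 11 in controls 1 and 2 and no HADA peak.

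Tlr3, the receptor for double-stranded RNA, had a single region at chr8:45862961-45863675 in an untranslated or non-coding exon near the start, where Gm45542 also starts, so it cannot be given to Tlr3 alone. Its pileup was 19 and 11 in controls 1 and 2, with no peak in control 3, and 29, 37 and 28 in HADA libraries. In raw pileup the HADA libraries all exceeded the control ones, but after centring HADA 1 lay slightly below control 1. The difference with the missing value filled in was 0.76 (limma adjusted p = 0.093). Tlr8, an RNA sensor, had a peak only in control 1, with a pileup of 9. Summed over their peaks, the 4 endosomal receptors reached 101, 56.0 and 25.1 in the controls and 153, 181 and 149 in the HADA libraries, which did not overlap. The means were 60.6 ± 38.0 and 161 ± 17.8 over background (SD, n = 3 each, ratio 2.65, exact two-sided permutation test, p = 0.1). Tlr9 alone made up 35.6 and 108.5 of these means, so the sum mostly follows Tlr9. A missing peak counted as 0, and Tlr8 went the other way. Of single shared regions on this scale, 42.6% were higher in HADA without overlap.

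**Figure D2:**
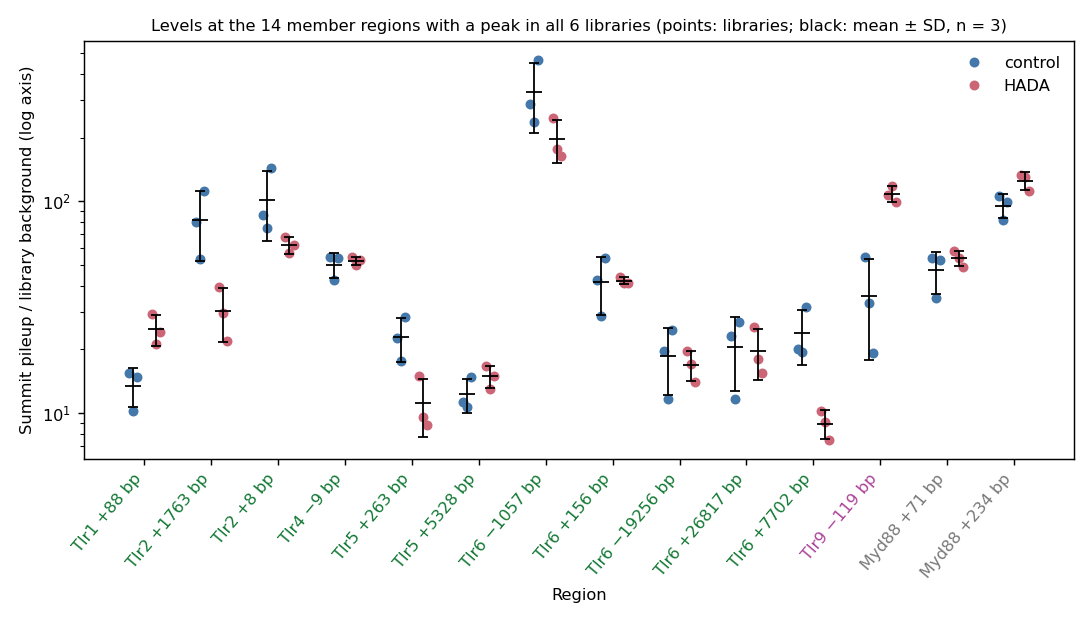
Summit pileup over library background (log axis) at the 14 regions with a peak in all 6 libraries; points are libraries and black bars are means ± SD, n = 3 per group. HADA points lie above control points at Tlr9, Tlr1 and the taller Myd88 region and below them at both Tlr2 regions, the Tlr5 start and the Tlr6 region at 7702 bp.

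Tlr2 recognises bacterial lipoproteins together with Tlr1 or Tlr6. It had 2 regions near the start of the gene (ENSMUSG00000027995.12, chr3:83743576-83749074, minus strand), and both fell in HADA. At the start itself, chr3:83748228-83749266, the pileup was 146, 154 and 263 in the controls and 159, 113 and 141 in the HADA libraries. Those raw pileups overlap, but after division by the background the levels did not, at 102 ± 36.8 against 62.2 ± 5.60 (SD, n = 3 each). The log2 difference was -1.03 (SE 0.26, limma adjusted p = 0.0153). Without HADA 2 it was -0.94 with a limma adjusted p of 0.066. Ranking by the deposited fold turned its direction, to 0.77 in normal scores (limma adjusted p = 0.064).

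The Tlr2 region at chr3:83746540-83747422 has its summit 1763 bp downstream of the nearest annotated transcript start. The summit lies in an intron of the main transcripts that a retained-intron transcript includes as exon. There the pileup was 135, 110 and 206 in the controls and 92, 59 and 50 in the HADA libraries. Every control library was higher than every HADA library, and control 3, with the highest neutrophil marker sum, was the highest. The level fell from 82.0 ± 29.6 to 30.3 ± 8.68 over background (SD, n = 3 each), and the log2 difference was -1.79 (SE 0.29, limma adjusted p = 0.0063), the most negative among the 14 shared regions.

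Tlr5 is the flagellin receptor. At its start, chr1:182781134-182783051, the pileup was 38, 36 and 52 in the controls and 35, 19 and 20 in the HADA libraries, which did not overlap. The log2 difference was -1.43 (SE 0.29, limma adjusted p = 0.0079), although the summits of the 6 libraries lay up to 1169 bp apart within the region, so they need not mark the same site. In the Tlr5 intron, 5328 bp from a start, the pileup was 19, 22 and 27 in the controls and 39, 26 and 34 in the HADA libraries, with a log2 difference of -0.09 (limma adjusted p = 0.80). The groups overlapped there after centring, and the sign turned with background scaling (0.29, limma adjusted p = 0.47) and with ranks of the deposited fold (0.72, limma adjusted p = 0.046), where it was called higher.

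Tlr6 pairs with Tlr2 for diacylated lipopeptides. The tallest region of all 10 genes lay 1057 bp upstream of a Tlr6 start at chr5:65116439-65119310, where the lncRNA Gm73098 also has a start. The pileup was 485, 489 and 849 in the controls and 580, 354 and 372 in the HADA libraries. The log2 difference was -1.09 (SE 0.27, limma adjusted p = 0.0144), with a limma adjusted p of 0.064 without HADA 2 and 0.054 without HADA 3. Over background the groups overlapped, at 330 ± 119 and 196 ± 45.1 (SD, n = 3 each), and the summits lay up to 1690 bp apart. The region at 156 bp, which also holds the starts of Fam114a1 and Mir574, read 72, 59 and 99 in the controls and 103, 82 and 94 in the HADA libraries (log2 difference -0.32, limma adjusted p = 0.29).

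The annotated Tlr6 body is long because 1 of its transcripts overlaps Fam114a1, and 6 further regions lie in that shared stretch. One of them, at chr5:65195570-65196264, read 34, 40 and 58 in the controls and 24, 18 and 17 in the HADA libraries, with no overlap. Its log2 difference was -1.77 (SE 0.29, limma adjusted p = 0.0063), the only member call lower in HADA that the ranking of the deposited fold kept (-0.89, limma adjusted p = 0.041). These regions cannot be given to Tlr6 rather than Fam114a1 from their position. Leaving out all regions in Fam114a1 or within 1 kb of its start, a choice made after the data were seen, left 20 regions, 10 of them shared, with 4 lower and 1 higher. Of the other regions in the shared stretch, the one at 20181 bp read 23 and 22 in controls 1 and 2, had no peak in control 3, and read 52, 51 and 40 in HADA libraries. It was not called with the missing value filled in (0.95, limma adjusted p = 0.071). The shared regions 19256 bp upstream and 26817 bp downstream of a start had pileups of 24 to 60 over all libraries and differences of -0.46 and -0.39 that were not called. The region 34799 bp upstream had peaks of 12 to 16 in control 2 and all HADA libraries, and that at 36005 bp a peak of 17 in HADA 3 alone.

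Tlr4 is the receptor for lipopolysaccharide. Its start region, chr4:66745443-66747349, which overlaps the gene Gm69151, read 92, 87 and 99 in the controls and 128, 100 and 120 in the HADA libraries. Over background this was 50.3 ± 6.90 against 52.6 ± 2.25 (SD, n = 3 each), and the log2 difference was -0.31 (95% interval -0.68 to 0.06, limma adjusted p = 0.155), a value whose sign depends on the scaling since it was 0.07 with background scaling. Both intronic Tlr4 regions had fewer peaks in HADA. The one at chr4:66770036-66770829 had pileups of 22, 16 and 25 in the controls and no peak in any HADA library, the only region of the 10 genes present in 3 of 3 libraries of one group and 0 of 3 of the other. Of all 62876 regions, 1.88% had that control-only pattern and 7.01% the HADA-only pattern, which 0 of the 27 regions showed. The intronic region at chr4:66775087-66775756 read 35, 24 and 53 in control, 16 and 16 in HADA 1 and 2, and had no peak in HADA 3. With its 1 missing value set to the lowest pileup of that list, the latter had a log2 difference of -2.11 (limma adjusted p = 0.0076). The former has no measured HADA value, so no difference is given for it.

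Tlr1, a partner of Tlr2 for triacylated lipopeptides, had the only positive difference among the 11 shared surface regions. At its start, chr5:65089793-65091194, where Gm73222 also starts, the pileup was 26, 21 and 27 in the controls and 69, 42 and 55 in the HADA libraries. Over background the groups did not overlap (13.5 ± 2.82 and 24.9 ± 4.24, SD, n = 3 each), but on the centred scale the difference of 0.52 (SE 0.24, limma adjusted p = 0.104) did not pass the threshold. It passed with background scaling (0.90, limma adjusted p = 0.017) and with the ranking of the deposited fold (0.91, limma adjusted p = 0.029). A weaker Tlr1 region, 1461 bp upstream, had 22 and 29 in controls 1 and 3 and 14 in HADA 3, with no peak elsewhere (-1.41 with 3 of the 6 values filled in, limma adjusted p = 0.046).

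Myd88 had 2 regions, both also at annotated starts of Acaa1a, which overlaps it, so neither can be assigned to Myd88 alone. The taller, at chr9:119169833-119170865, read 179, 168 and 181 in the controls and 313, 260 and 255 in the HADA libraries. Over background this was 95.6 ± 12.5 against 125 ± 11.7 (SD, n = 3 each), without overlap, while the centred log2 difference was 0.02 (95% interval -0.30 to 0.33, limma adjusted p = 0.92). The other, at chr9:119168727-119169445, read 91, 72 and 97 in the controls and 136, 108 and 112 in the HADA libraries, with a centred difference of -0.17 (95% interval -0.58 to 0.24, limma adjusted p = 0.48). A difference at the adaptor relative to the median shared region was thus not detectable.

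**Figure D3:**
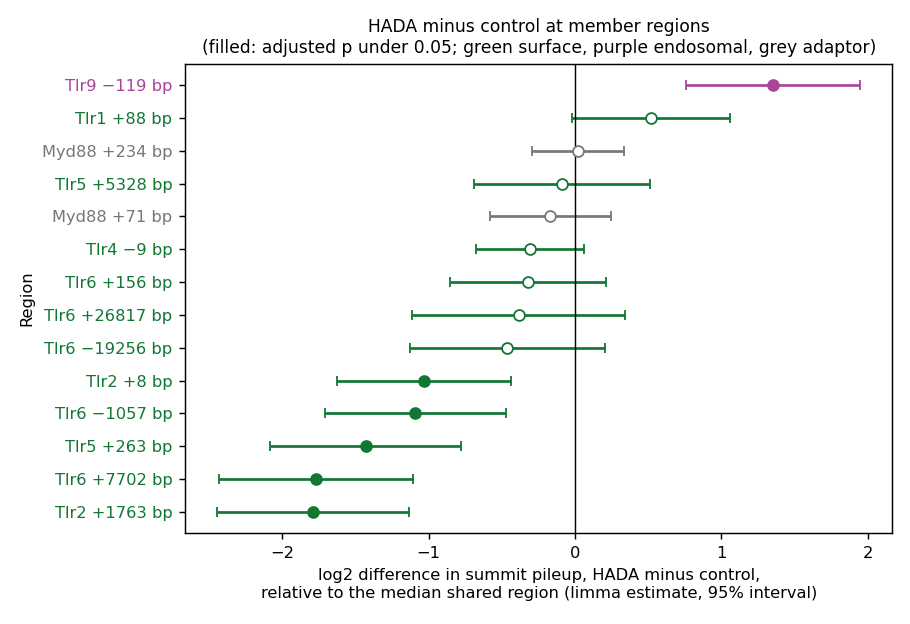
Difference in log2 summit pileup, HADA minus control, relative to the median shared region, at the 14 shared regions (points, limma estimates; bars, 95% intervals; filled points, adjusted p under 0.05). Tlr9 is the only filled point on the positive side, at 1.35, and the 5 filled points on the negative side, from -1.03 to -1.79, belong to Tlr2, Tlr5 and Tlr6.

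The order of the genes by their tallest peak also differed between the groups. A summit height is read at 1 point, but the tallest of several peaks was taken, and longer genes offer more of them: Tlr6 spans 94794 bp and had 5 to 9 peaks per library, whereas Tlr9 spans 4286 bp and had 1. Tlr6 was tallest in all 6 libraries. In control libraries Tlr2 and Myd88 followed with overlapping values, at 102 ± 36.8 and 95.6 ± 12.5 over background, then Tlr4 at 50.3 ± 6.90 and Tlr9 at 35.6 ± 17.8, which overlapped each other (SD, n = 3). Tlr5 at 22.8 ± 5.45 overlapped Tlr9, whereas Tlr1 at 13.8 ± 3.13 lay below Tlr5 and above Tlr7 at 7.40 ± 1.44 in every control library. In HADA libraries Tlr6 was followed by Myd88 at 125 ± 11.7 and Tlr9 at 108.5 ± 9.12, which overlapped, and then by Tlr2 at 62.2 ± 5.60 and Tlr4 at 52.6 ± 2.25, which did not. Tlr1 at 24.9 ± 4.24 came next without overlap, and Tlr7, Tlr5 and Tlr3 lay lowest, at 16.9 ± 3.01, 14.9 ± 1.80 and 14.4 ± 3.60, each overlapping the next. Tlr9 thus moved from places 4 to 6 in the control libraries to place 3 in all 3 HADA libraries, and Tlr2 from places 2 and 3 to place 4.

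A ratio within a library needs no scaling between libraries. The Tlr9 pileup divided by that of the Tlr2 start was 0.63, 0.44 and 0.13 in the controls and 1.58, 2.08 and 1.61 in HADA libraries, so Tlr2 was taller in each control library and Tlr9 in each HADA library. Against each of the 13 other shared regions, the ratio for Tlr9 was higher in every HADA library than in any control library. These ratios reuse the pileups given above, and Tlr9 had the largest positive centred difference of the 14, so they add no separate support. After centring, 29.4% of all shared regions were higher in HADA without overlap, and the same ratios for other regions were not computed. The contrast of the receptor classes, taken as the mean centred log2 pileup at endosomal minus that at surface regions, was 0.57, 0.29 and -1.32 in the controls and 1.68, 2.15 and 1.99 in HADA libraries. It rests on 1 endosomal region, that of Tlr9, against 11 surface regions. The difference between groups was 2.10, and 1.17 without control 3, but 0.074 with ranks of the deposited fold. With missing pileups filled in, over 6 endosomal and 16 surface regions, the contrast was -1.42, -1.43 and -2.33 in the controls and -0.59, -0.07 and -0.21 in HADA libraries. The groups did not overlap in either form, and no test was made since the members were chosen with results known. The filled-in form kept only regions with a peak in 3 or more libraries. It left out the Tlr8 region and a Tlr7 region, with peaks in controls alone, and a Tlr6 region with a peak in HADA 3 alone. It kept the Tlr4 intron whose HADA values were all filled in. Part of the separation in that form was thus set by the filter and the filling.

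Levels were also summed over the receptors of each class. The 5 surface receptors summed to 784, 603 and 1028 in the controls and 657, 528 and 507 in the HADA libraries, which overlapped (805 ± 213 and 564 ± 81.2, SD, n = 3 each, exact two-sided permutation test, p = 0.2). Among them, the sums of Tlr2 (184 ± 65.6 against 92.5 ± 12.8), Tlr4 (82.3 ± 18.2 against 57.5 ± 4.43) and Tlr5 (33.8, 37.5 and 43.2 against 31.6, 22.6 and 23.7) were lower in all HADA libraries than in any control library (exact permutation p = 0.1 each). The sums of Tlr6 (478 ± 118 against 361 ± 58.4) and Tlr1 (10.2 to 30.6 against 21.1 to 30.3) overlapped. The Myd88 sum was higher in all HADA libraries (143 ± 22.9 against 179 ± 16.0, SD, n = 3 each, exact permutation p = 0.1). The share of all genes whose sums do not overlap was not computed, while of single shared regions on this scale 17.4% were lower and 42.6% higher without overlap. The number of peaks over all 10 genes was 25, 24 and 18 in the controls and 22, 23 and 23 in the HADA libraries, so the groups overlapped and control 3 had the fewest, as it did genome-wide.

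**Figure D4:**
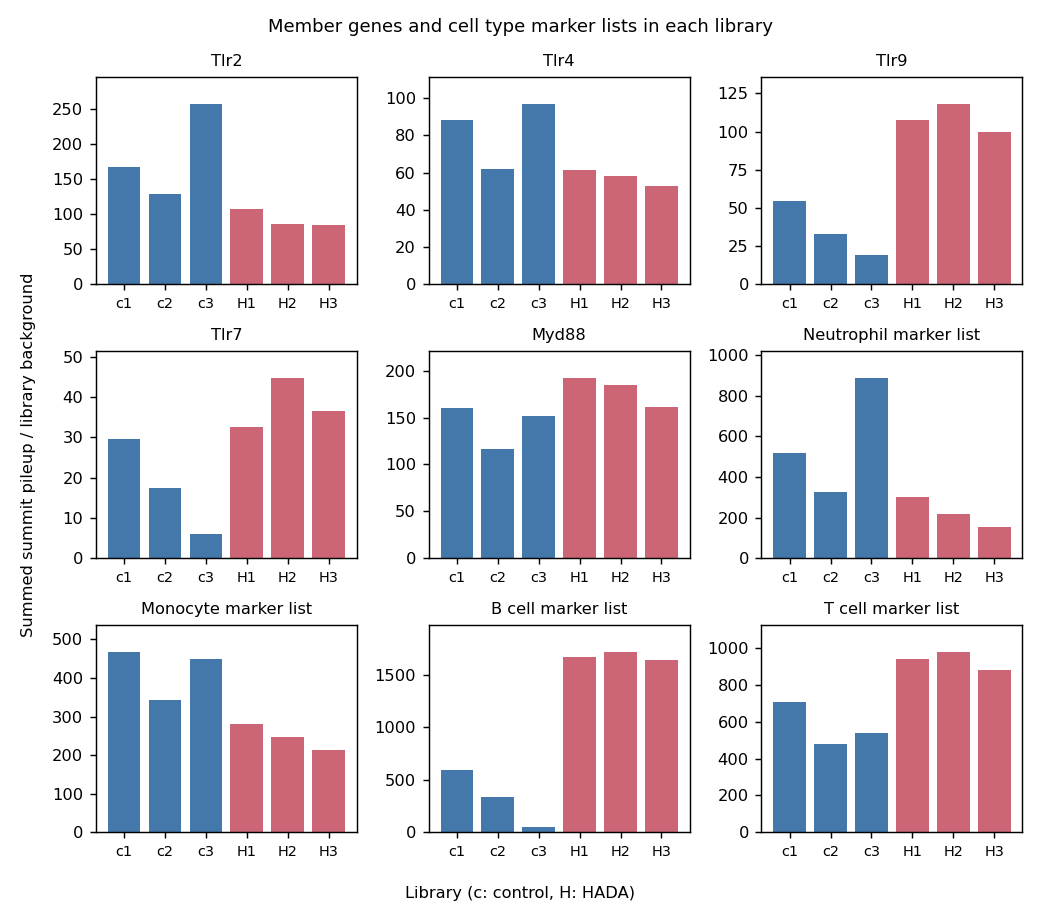
Summit pileup over background, summed over the peaks of Tlr2, Tlr4, Tlr9, Tlr7 and Myd88 and of 4 marker lists, in each library (bars; c, control; H, HADA; axes start at 0). In control 3, Tlr9 (19.1) and the B cell list (52.5) are lowest, and Tlr2 (256) and the neutrophil list (887) are highest.

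Among 34 other genes of the pathway, 1 start region each of Cd180, Ly86 and Unc93b1 was higher in HADA and that of Cd14 was lower, while another region near the Cd180 start had peaks in the controls alone and others of Ly86 and Unc93b1 were not called. All 34 were matched to the annotation and 33 had a region, the exception being Tlr11, which had no peak in any library. Of their 61 shared regions, 14 were higher (23.0%) and 10 lower (16.4%), against 18.4% and 24.5% of all shared regions, with a median log2 difference of 0.01. The count of higher regions fell to 7, 6 and 9 without HADA 1, 2 and 3, and the count of lower ones to 6 without HADA 2. Of 40 start regions, 9 were higher and 4 lower, in 13 genes. The calls at starts were close to the background, with 21.4% higher and 9.89% lower among all shared regions near protein-coding starts.

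Cd14, which hands lipopolysaccharide to Tlr4, had a start pileup of 106, 83 and 135 in the controls and 56, 37 and 39 in the HADA libraries. It fell by 1.92 on the log2 scale (SE 0.25, limma adjusted p = 0.0063), and the groups did not overlap. Ly96, which encodes the Tlr4 co-receptor MD-2, read 168, 151 and 172 against 188, 133 and 150, a centred difference of -0.70 (limma adjusted p = 0.0098). Cd180, a receptor homologue of B cells, read 48, 41 and 31 against 170, 134 and 156 at 79 bp from its start, a rise of 1.33 (SE 0.17, limma adjusted p = 0.0063). Another Cd180 region, 1944 bp from the start, ran the other way, with pileups of 93, 93 and 109 in the controls and no peak in any HADA library. Its partner Ly86, which encodes MD-1, read 50, 48 and 19 against 127, 110 and 127 at 89 bp from a start and rose by 1.14 (limma adjusted p = 0.0179). At 2732 bp from a start Ly86 read 49, 54 and 67 against 102, 70 and 89, with overlapping groups after centring and a difference of -0.01 (limma adjusted p = 0.97). Unc93b1, which carries nucleic acid receptors such as Tlr9 and Tlr7 to endosomes, had a region 852 bp from a start that read 48, 35 and 25 against 147, 124 and 137 and rose by 1.34 (SE 0.21, limma adjusted p = 0.0063). Its region 39 bp from a start was not called (-0.0024, limma adjusted p = 0.99), nor were the starts of the receptor chaperones Hsp90b1 (0.15, limma adjusted p = 0.43) and Cnpy3 (-0.48, limma adjusted p = 0.10), which were added after their values were seen. At the called regions of Cd180, Ly86 and Unc93b1, picked here by their calls, every HADA library was higher than every control library. After centring, 29.4% of all shared regions were higher in that way, and 31.2% were lower in that way, as Cd14 was.

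Signalling genes were called as well. Irak3, an inhibitory member of the IRAK family, rose by 0.58, Tab1 by 0.53, its partner kinase gene Map3k7 by 0.59, the adaptor Sarm1 by 0.69 and the PI3K adaptor Pik3ap1 by 0.48 on the log2 scale at a start region (limma adjusted p = 0.0156, 0.0176, 0.0191, 0.037 and 0.041). The Map3k7 and Pik3ap1 values belong to regions 1977 and 2264 bp from a start. Nearer the promoter the values had the opposite sign and were not called, at -0.21 for Map3k7 6 bp from a start (limma adjusted p = 0.24) and -0.35 for Pik3ap1 at 154 bp (limma adjusted p = 0.147). Irf7, the interferon regulator downstream of Tlr7 and Tlr9, fell by 1.20 at a region 2326 bp upstream (limma adjusted p = 0.0115), and its region at 170 bp had a difference of -0.63 that was not called (limma adjusted p = 0.072). Tlr12, a profilin receptor, read 27, 15 and 16 in the controls and 57, 40 and 50 in the HADA libraries and rose by 0.75 (limma adjusted p = 0.043). Irak2, outside the naming rule and added after its values were seen, had a start region called lower (-0.58, limma adjusted p = 0.049). Its start region 20 bp from another start was not called (0.017, limma adjusted p = 0.93). Away from starts, 6 regions were called lower, in Pik3ap1, Irak2, Irak4 and Tlr13, with log2 differences from -0.80 at Irak2 to -2.19 at Pik3ap1. There, 5 were called higher, in Pik3ap1, Map3k7, Irak3 and Slc15a4, from 0.59 at Pik3ap1 to 1.47 at Map3k7. Of the list's 61 shared regions, 40 were start regions and the rest lay away from starts. Over all shared regions 24.5% were lower and 18.4% higher, and the share away from starts alone was not computed.

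**Figure D5:**
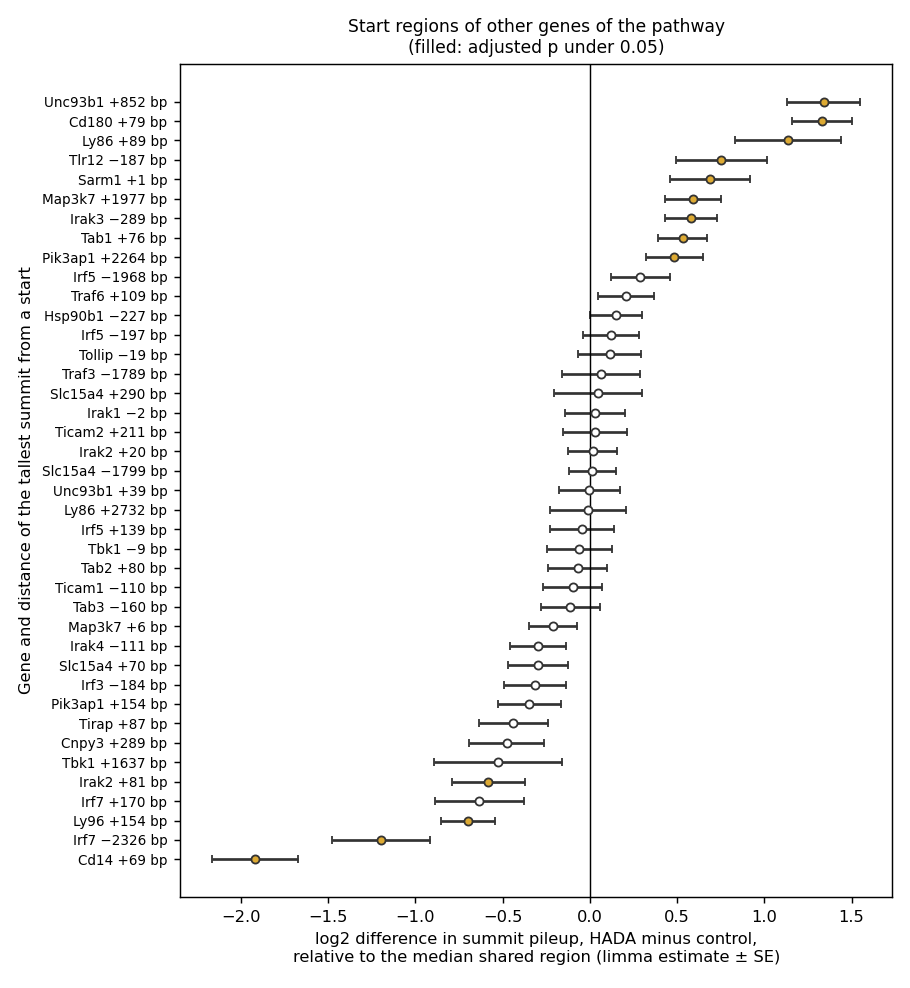
Difference in log2 summit pileup, HADA minus control, relative to the median shared region, at 40 start regions of the other pathway genes (points, limma estimates; bars, ± SE; filled points, adjusted p under 0.05). Cd14 is the most negative at -1.92, and Unc93b1 and Cd180 are the most positive at 1.34 and 1.33.

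The start regions most like that of Tlr9 over the 6 libraries, by Euclidean distance after each region's own mean was subtracted, belonged to Phgdh (0.149), Ncoa6 (0.151) and Stk10 (0.154) among 11572 protein-coding genes. Those most like the Tlr2 region at 1763 bp belonged to Pilra (0.160), Tnfrsf1a (0.160) and Gm49368 (0.1701). The measure takes in both the difference between groups and the low or high value of control 3.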

How the data were processed

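ATAC-seq of unsorted blood leukocytes was analysed in 3 control and 3 HADA libraries, grouped by their titles. Per the study's methods, the authors used Trimmomatic for trimming, Bowtie2 for alignment to GRCm39, Picard for duplicate removal and MACS2 for peaks, library by library as the peak names show. Tool versions, MACS2 options and any shift for the Tn5 insertion are not given in the sources used here. The deposited lists give each peak a score, a fold enrichment over local background, a −log10 p-value and a −log10 q-value.

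Each peak's summit pileup, a whole number, and its background were obtained from its deposited fold together with its −log10 p-value, which worked for 100% of peaks. Peaks sharing 1 bp were merged over the 21 main chromosomes into 62876 regions, and 23970 had a peak in all libraries. Genes came from GENCODE M39 on GRCm39, and 0 chromosomes had a peak beyond their end. Log2 pileups were centred on the median shared region and compared with limma 3.58.1 (R 4.3.3) with a trend and Benjamini-Hochberg adjustment at 0.05. Scripts were tested on simulated data. The study's methods give no test for these data. Summed levels were compared by exact permutation tests.

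The members, gene lists and tests were chosen with earlier results of these data known. All 10 members were named. Of the pathway list, genes with a start region past the threshold (at most 12 by adjusted p) and genes without a peak were named. Groups share replicate numbers, but the correlations of same-numbered libraries' deviations were -0.08, 0.08 and -0.38, so the numbers were not used as pairs. The lowest pileup in a list was 7 to 9 fragments, so weaker peaks are not seen. Alternatives were background scaling, ranks of the deposited fold, a −log10 q-value of at least 5, equal peak numbers, summit-based regions, filled-in missing pileups, a 1 kb start window, a replicate block and leaving out each library. Mapped read totals and a peak count matrix were not used here.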

Additional observations from a re-analysis of the deposited data

How the results depend on the processing

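Tlr9 kept its direction under every alternative run, from 0.12 to 1.73, and lost its call only when the deposited fold was ranked. The Tlr6 region at 7702 bp kept its call under every alternative run. The median over the 14 shared member regions was -0.35, but 0.026 with background scaling and 0.027 with ranks of the fold, and it ranged from -0.59 to -0.10 when 1 library was left out, with control 2 and control 3 at the ends. The count of higher regions, 1 of 14, became 2 with background scaling, 2 with ranks and 3 of 24 with missing pileups filled in. That of lower regions, 5 of 14, became 1 with ranks, 3 of 10 with summit-based regions (the Tlr2 region at 1763 bp and the Tlr5 start were not among those tested), 8 of 24 with filled-in pileups (1 of them, in a Tlr4 intron, with every HADA value filled in) and 3 to 5 with a library left out (3 without HADA 2). For the pathway list, 14 higher regions of 61 became 17 with background scaling, 8 with ranks, 20 of 99 with filled-in pileups and 6 to 14 with a library left out, and 10 lower ones became 6 with background scaling, 2 with ranks, 23 of 99 with filled-in pileups and 6 to 13 with a library left out. The endosomal minus surface difference of 2.10 was 0.074 with ranks and 1.17 (without control 3) to 2.46 with a library left out.

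HADA-only regions numbered 0, but 1 at a −log10 q-value of at least 5, 1 with equal peak numbers, 2 with summit-based regions and 0 to 2 with a library left out (2 without control 2). The single control-only region lay beyond 1 kb of a start, which left 0, and 1 to 2 were found with a library left out (2 without control 3). The mean number of peaks was 0.33 higher in HADA, but the difference was -0.67 with equal peak numbers and -1.83 without control 3 (range -1.83 to 1.67).

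Some single regions that were not called changed sign. With background scaling these were Tlr4 at the start (0.072), Tlr5 at 5328 bp (0.29), Tlr6 at 156 bp (0.059) and Myd88 at 71 bp (0.21). With ranks they were the Tlr4 start (0.28), Tlr5 at 5328 bp (0.72, limma adjusted p = 0.046) and Tlr6 at -19256 bp (0.13), together with the called Tlr2 start (0.77). The Myd88 region at 234 bp read -0.0043 with equal peak numbers, -0.0013 with summit-based regions and -0.027 to 0.079 with a library left out, and Tlr5 at 5328 bp ranged from -0.25 to 0.062, with 0.062 without control 3 and 0.033 without HADA 2.

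With the replicate number as a block, the median stayed at -0.35, the members had 1 higher and 5 lower call and the pathway list 10 and 9. The files hold peaks alone, so a missing peak means a pileup under the caller's threshold, not closed chromatin, and since that threshold rises with the local background a filled-in value can be too low.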
